A study of Rattus norvegicus with 14 samples.

Results

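The genes described here are 9 genes that mark or act in the stromal cells between the cords of the fetal testis: the growth factor genes Pdgfa and Pdgfb, their receptor genes Pdgfra and Pdgfrb, the transcription factor genes Nr2f2 and Tcf21, the matrix proteoglycan genes Dcn and Lum, and the signalling ligand gene Wnt5a. They were taken by name from the table of unadjusted counts, whatever their values. All 9 of the 9 names were found among the 18174 genes of the table, and all 9 were among the 12719 genes that passed the filter on low counts. The samples were testes of male fetuses of Harlan Sprague Dawley rats, dissected at gestational day 18 and combined by litter. The dams had been given dicyclohexyl phthalate (DCHP), a plasticizer, by gavage in corn oil on gestational days 14 to 18, so the fetuses were exposed in the uterus. The groups were corn oil alone (vehicle) and 100, 300 and 600 mg/kg/day with 3 litters each, and 900 mg/kg/day with 2 litters. RNA of each pool was measured with TempO-Seq, a targeted assay that joins 2 neighbouring probes on each RNA and sequences the joined product, giving 14 libraries. Each library is a homogenate of whole testes from 1 litter, so it holds cords, interstitium and vessels together.

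Platelet-derived growth factors are dimeric ligands that activate receptor tyrosine kinases on mesenchymal cells. In the fetal gonad of mice the alpha receptor is carried by interstitial cells, and its loss disturbs cord formation and the appearance of fetal Leydig cells, the cells that make testosterone. Nr2f2 (also called COUP-TFII) and Tcf21 encode transcription factors of interstitial mesenchyme, from which Leydig and peritubular cells are thought to arise. Decorin and lumican, the products of Dcn and Lum, are small leucine-rich proteoglycans that bind collagen fibrils. Wnt5a is a ligand that acts mostly without beta-catenin, through the receptors Ror2, Ryk and Frizzled.

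The reference table of promoter sequences (RefSeq, build GRCr8) held 6 of the 9 genes: Lum, Pdgfa, Pdgfb, Pdgfra, Tcf21 and Wnt5a. Each window runs from 250 bases before to 50 bases after the gene's start. The windows of 3 genes are printed because they frame the values given later: Lum was the gene that varied most between litters of a dose, Tcf21 varied least, and Pdgfra is the receptor of the interstitial cells themselves. The windows lie at chr7:34245456-34245755 on the plus strand for Lum, chr1:24520249-24520548 on the plus strand for Tcf21 and chr14:33408467-33408766 on the minus strand for Pdgfra, and are written 5′ to 3′ with matches to the searched motifs in capitals.
Lum: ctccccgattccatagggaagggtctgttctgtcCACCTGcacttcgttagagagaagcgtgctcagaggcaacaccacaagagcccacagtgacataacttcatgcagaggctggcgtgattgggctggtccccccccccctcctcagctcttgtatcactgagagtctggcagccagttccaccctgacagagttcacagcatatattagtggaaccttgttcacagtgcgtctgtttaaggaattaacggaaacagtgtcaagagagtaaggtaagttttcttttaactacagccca
Tcf21: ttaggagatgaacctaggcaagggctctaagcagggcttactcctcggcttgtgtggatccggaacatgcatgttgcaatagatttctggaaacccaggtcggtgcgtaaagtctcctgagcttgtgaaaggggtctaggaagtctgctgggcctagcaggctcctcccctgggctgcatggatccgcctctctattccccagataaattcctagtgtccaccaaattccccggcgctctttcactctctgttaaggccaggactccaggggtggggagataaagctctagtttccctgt
Pdgfra: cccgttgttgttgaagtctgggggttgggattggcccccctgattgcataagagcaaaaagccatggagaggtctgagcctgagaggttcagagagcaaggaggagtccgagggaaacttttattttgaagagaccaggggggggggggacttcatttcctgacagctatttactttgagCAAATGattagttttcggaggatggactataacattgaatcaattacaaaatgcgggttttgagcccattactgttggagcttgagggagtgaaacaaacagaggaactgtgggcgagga

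These motifs were searched on both strands: the nuclear receptor half-site AGGTCA, the E-box CANNTG, the GC box GGGCGG and the TATA box TATAAA. They were present in 16.2%, 72.1% and 33.1% of 33469 promoter windows of the same length for the first 3, and in 4760 of these windows for the TATA box. Lum held an E-box beginning at -216 from the start and Pdgfra one beginning at -70, and the Tcf21 window held none of these letters. Of the windows not printed, those of Pdgfa and Pdgfb each held a GC box, and those of Pdgfa and Wnt5a an E-box. The half-site and the TATA box were in none of the 6 windows, which says only that these letters do not occur there. The share of G and C ranged from 48.0% for Pdgfra to 62.0% for Pdgfb, against a median of 51.7% over all windows. A match is a string of letters and not a site of binding.

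Libraries held 5558873 to 11272861 estimated counts. On the first principal component of log2 CPM (36.1% of the variance), 4 libraries lay apart from the other 10. They were the 2 litters of 900 mg/kg/day (38.2 and 22.8) and replicate 1 of vehicle (42.6) and of 100 mg/kg/day (65.1), while the other 10 lay between -35.6 and 1.84. The labels number no litters, so replicate numbers were given here in the order in which the samples of each group are listed. The same number in different groups links no litters. The labels name no batch that separates these libraries, and whether replicate 1 of vehicle and of 100 mg/kg/day are as labelled was not tested. Their summed level of fetal Leydig cell markers, 6823 and 4460 CPM, was the lowest of their groups and above the 1873 to 2255 CPM of 900 mg/kg/day. Results that rest on replicate 1 of vehicle or of 100 mg/kg/day are given with and without them. In every litter the lists of Sertoli, germ cell, endothelial and other markers were detected, and no marker in the table was at 0 in all libraries. In samples of whole testis, fewer cells of a type and less RNA per cell cannot be told apart.

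None of the 9 genes passed the test in any comparison. With edgeR's quasi-likelihood test and Benjamini-Hochberg adjustment over all 12719 genes, 0 of the 9 passed at 100 mg/kg/day, where 0% of all tested genes passed. At 300, 600 and 900 mg/kg/day it was again 0 of 9, where 0.0472%, 0.22% and 0.252% of all tested genes passed. Between 900 and 600 mg/kg/day it was 0 of 9 against 0% of all genes, and for the slope over dose 0 of 9 against 0.425%. At shares this low, a count of 0 among 9 genes is close to the background. DESeq2 also called 0 of the 9 in each of these 6 comparisons. At an unadjusted p under 0.05, edgeR had 1 of the 9 at 100 mg/kg/day (Pdgfra), 1 between 900 and 600 mg/kg/day (Nr2f2) and 0 in the other 4 comparisons, against 3.40% and 8.32% of all tested genes in those first 2 comparisons and 3.65%, 4.79%, 4.99% and 5.09% at 300, 600 and 900 mg/kg/day and for the slope. Changes are given as log2 fold changes ± standard error from the edgeR fit, and levels as CPM, the counts scaled to a common library total with TMM factors. Levels of different genes are not compared, since each gene is read by its own probes.

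**Figure D1:**
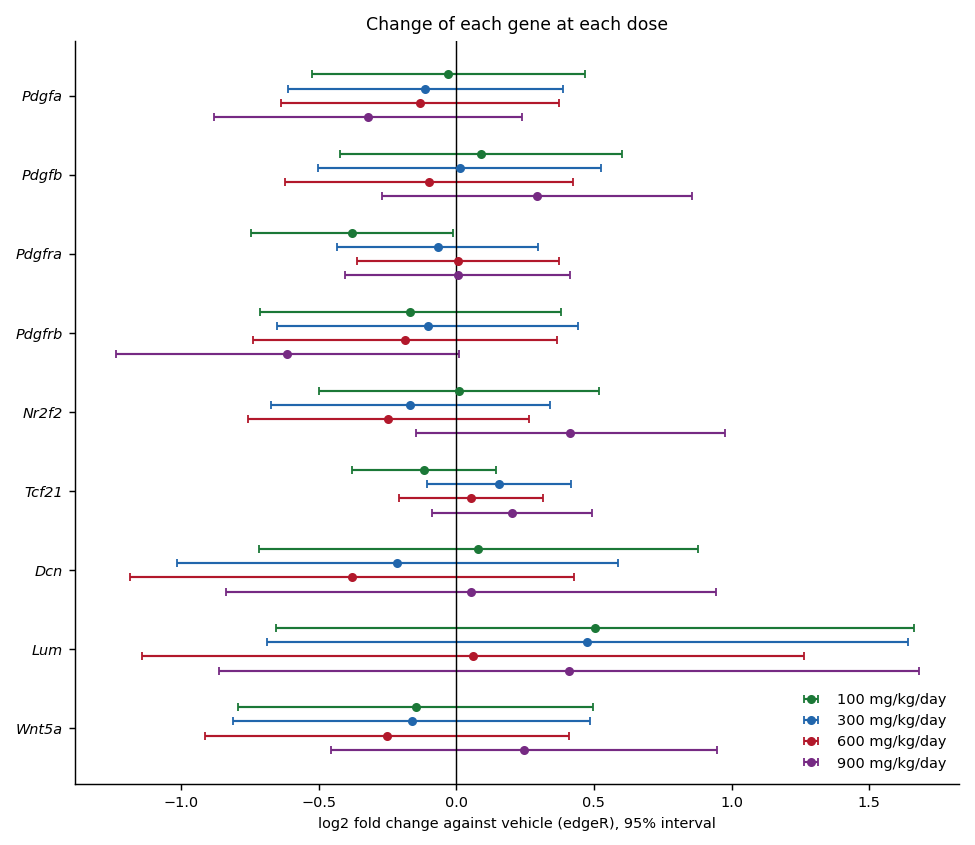
Log2 fold change against vehicle (horizontal axis, edgeR, with 95% intervals) of each of the 9 genes at 100, 300, 600 and 900 mg/kg/day. Of the 36 intervals only that of Pdgfra at 100 mg/kg/day (-0.75 to -0.01) does not reach 0, and none of the adjusted p was under 0.05.

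Neither of the 2 ligand genes passed the test at any dose. Pdgfa, which encodes the A chain (chromosome 12, 15645541 to 15666498 on rn7), ranged from 5.24 CPM in 900 mg/kg/day replicate 2 to 10.15 CPM in vehicle replicate 2. Its group means were 8.26 ± 1.68 CPM in vehicle, 8.08 ± 1.54 at 100, 7.67 ± 1.16 at 300 and 7.56 ± 0.52 at 600 mg/kg/day (SD, n = 3 each), and 6.65 ± 2.00 at 900 mg/kg/day (n = 2). The means were in descending order of dose, but every treated group overlapped vehicle. The slope of -0.031 ± 0.022 log2 per 100 mg/kg/day did not pass (edgeR adjusted p = 1). At 900 mg/kg/day the change was -0.32 ± 0.26, with a 95% interval from -0.88 to 0.24.

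Pdgfb, which encodes the B chain (chromosome 7, 111540345 to 111557985), was at 7.94, 5.77 and 7.66 CPM in the 3 vehicle litters and at 8.79 and 8.67 CPM in the 2 litters of 900 mg/kg/day. Both litters of 900 mg/kg/day thus lay above every vehicle litter, by a margin smaller than the range of the vehicle litters. The groups of 100, 300 and 600 mg/kg/day (6.53 to 8.16, 5.28 to 8.60 and 5.13 to 8.40 CPM) overlapped vehicle. The change at 900 mg/kg/day was 0.29 ± 0.26 (edgeR adjusted p = 0.852). Both ligands were read from few counts, 44 to 102 for Pdgfa and 35 to 101 for Pdgfb per library.

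The receptor genes are those of the alpha chain, Pdgfra (chromosome 14, 33005839 to 33054336), which binds the A and B chains, and of the beta chain, Pdgfrb (chromosome 18, 54499964 to 54538844), which binds the B chain and is typical of pericytes and other mural cells. Pdgfra was at 49.1, 68.2 and 67.7 CPM in vehicle and at 39.6, 44.6 and 57.8 CPM at 100 mg/kg/day. In both groups replicate 1, one of the libraries that lay apart, was the lowest litter, and the groups overlapped. The change was -0.38 ± 0.17, with an unadjusted p of 0.0435 and an edgeR adjusted p of 1. Without replicate 1 of 100 mg/kg/day the change was -0.27, and its unadjusted edgeR p was no longer under 0.05. That p stayed under 0.05 without vehicle replicate 1, and without both of these litters.

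At the higher doses Pdgfra lay at the vehicle level. It was at 53.0, 59.8 and 63.8 CPM at 300, at 57.1, 69.0 and 59.6 CPM at 600 and at 57.1 and 66.6 CPM at 900 mg/kg/day, all within the range of vehicle apart from 1 litter of 600 mg/kg/day. The changes at 600 and 900 mg/kg/day were 0.0057 ± 0.17 and 0.0047 ± 0.19, and the interval at 900 mg/kg/day ran from -0.40 to 0.41, which corresponds to 0.756 to 1.33 times vehicle. The low values at 100 mg/kg/day had no counterpart at a higher dose.

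Pdgfrb was at 9.63, 20.4 and 13.7 CPM in vehicle, at 10.8, 15.5 and 12.7 CPM at 100, at 13.21 to 13.86 CPM at 300, at 10.91 to 14.25 CPM at 600 and at 7.71 and 11.25 CPM at 900 mg/kg/day. A single litter of 900 mg/kg/day was the lowest of all 14, and the other lay between the lowest and the middle vehicle litter. The change at 900 mg/kg/day was -0.61 ± 0.29 (unadjusted p = 0.0529, edgeR adjusted p = 0.852), and the slope was -0.051 ± 0.026 log2 per 100 mg/kg/day (adjusted p = 1). The vehicle litters differed by more than these changes. Without vehicle replicate 2 the change was -0.29, and without vehicle replicate 1 it was -0.84.

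The distance between the receptors was also taken within each library. The log2 level of Pdgfra less that of Pdgfrb was 1.73 to 2.32 in vehicle, 1.51 to 2.17 at 100, 1.92 to 2.25 at 300, 1.99 to 2.42 at 600 and 2.54 to 2.85 at 900 mg/kg/day. Both litters of 900 mg/kg/day lay above the other 12. These values are set by the probes of each gene as well as by RNA, so only their differences between litters can be read, and they were not tested.

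**Figure D2:**
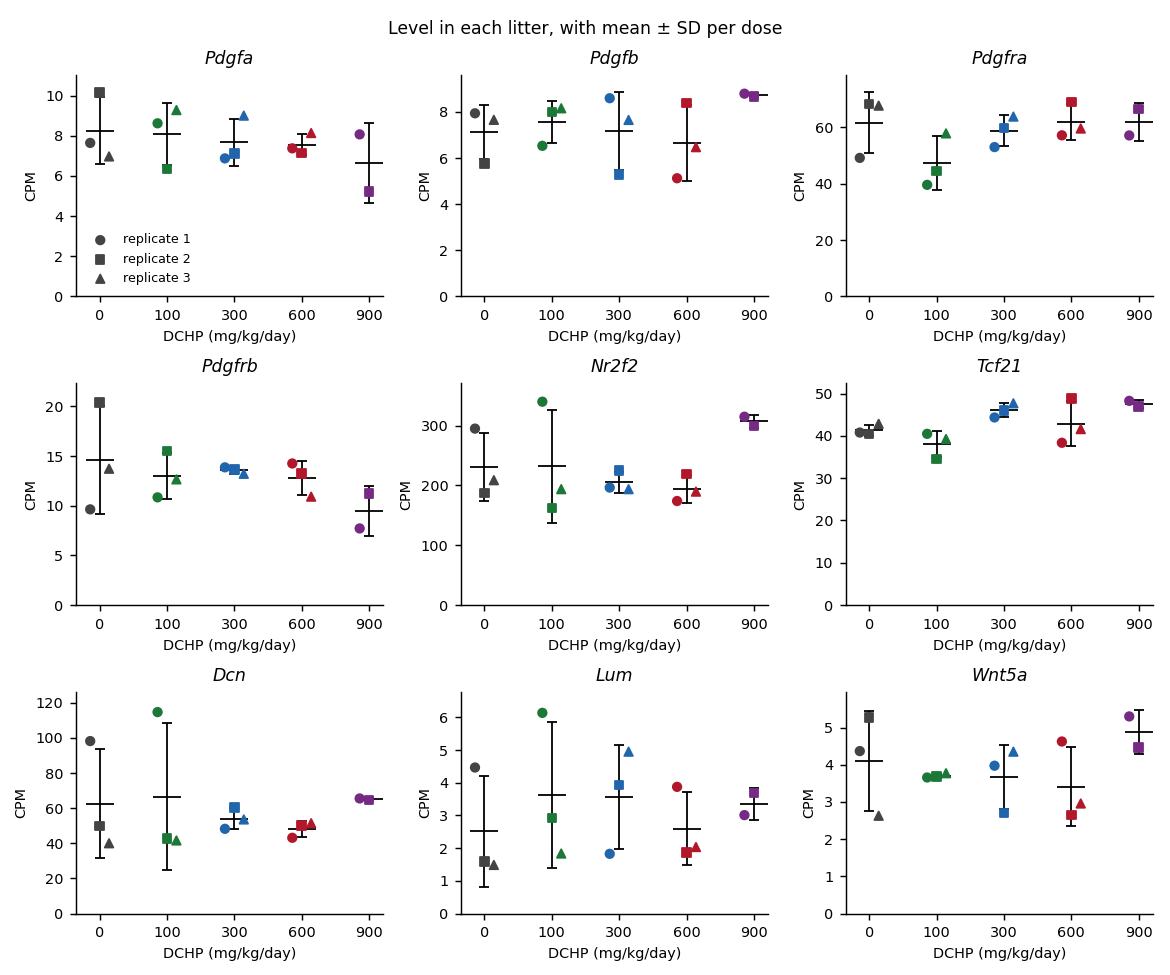
Level in CPM (vertical axis, from 0) of the 9 genes in each of the 14 litters against dose of DCHP, with the mean and SD of each group as a bar and marker shape for the replicate number. Circles of vehicle and 100 mg/kg/day stand above the other litters of their groups for Nr2f2, Dcn and Lum, while Tcf21 stays between 34.5 and 48.8 CPM.

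Of the transcription factor genes, Nr2f2 (chromosome 1, 124009181 to 124022032) divided the litters most sharply. It was at 295.0, 187 and 209 CPM in vehicle and at 340.0, 162 and 194 CPM at 100 mg/kg/day. It was at 196, 225 and 194 CPM at 300, at 174, 219 and 190 CPM at 600, and at 315 and 299 CPM at 900 mg/kg/day. Its 4 high litters were the 4 libraries that lay apart on the first principal component, at 295.0 to 340.0 CPM, and the other 10 ran from 162 to 225 CPM without overlap. Since that axis is computed from all genes, Nr2f2 included, this is a description.

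Against vehicle, Nr2f2 at 900 mg/kg/day was at 307 ± 11.16 CPM (n = 2) compared with 230.2 ± 57.1 CPM (n = 3), a change of 0.41 ± 0.26 (edgeR adjusted p = 0.852). Both litters of 900 mg/kg/day were above all 3 of vehicle. Against 600 mg/kg/day, at 194 ± 22.8 CPM (n = 3), the change was 0.66 ± 0.26 with an unadjusted p of 0.0245 and an adjusted p of 0.508. At 300 and 600 mg/kg/day the changes from vehicle were -0.17 ± 0.24 and -0.25 ± 0.24.

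Tcf21 (chromosome 1, 22701353 to 22704203), which encodes a basic helix-loop-helix factor of mesenchyme, was the steadiest of the 9. Its SD between litters of a dose was 0.11 on the log2 scale, a spread below that of all but 5.61% of the 3371 tested genes with a count within a factor of 2 of its own. It was at 40.8, 40.4 and 42.9 CPM in vehicle, at 44.4, 46.0 and 47.7 CPM at 300 and at 48.3 and 47.0 CPM at 900 mg/kg/day, so that every litter of those 2 doses lay above every vehicle litter. At 100 mg/kg/day (40.5, 34.5 and 39.3 CPM) and at 600 mg/kg/day (38.4, 48.8 and 41.6 CPM) the litters overlapped vehicle. The changes were -0.12 ± 0.12, 0.15 ± 0.12, 0.05 ± 0.12 and 0.20 ± 0.13 from the lowest to the highest dose, and the slope was 0.025 ± 0.013 log2 per 100 mg/kg/day (edgeR adjusted p = 1). The interval at 900 mg/kg/day, 0.942 to 1.41 times vehicle, was the narrowest among the 9 genes at that dose.

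Few of the 9 genes had groups whose litters did not overlap. At 100 and 600 mg/kg/day it was 0 of 9 genes, where 5.98% and 11% of all tested genes did not overlap vehicle in either direction. At 300 mg/kg/day it was 1 of 9 (Tcf21) against 9.34% of all genes. At 900 mg/kg/day it was 3 of 9 (Pdgfb, Nr2f2 and Tcf21, all higher) against 19.2%, and between 900 and 600 mg/kg/day it was 3 of 9 (Pdgfb, Nr2f2 and Dcn, all higher) against 46.7%.

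The proteoglycan genes Dcn and Lum lie next to each other on chromosome 7 of rn7, at 32281252 to 32321271 and at 32358614 to 32365794, both on the plus strand, followed by Kera and Epyc of the same family. Dcn was at 98.2, 49.8 and 40.01 CPM in vehicle and at 114.7, 42.8 and 41.6 CPM at 100 mg/kg/day. It was at 48.2, 60.3 and 53.6 CPM at 300, at 43.1, 50.2 and 51.4 CPM at 600, and at 65.5 and 64.7 CPM at 900 mg/kg/day. As with Nr2f2, the 4 libraries that lay apart were the 4 highest (64.7 to 114.7 CPM, against 40.01 to 60.3 CPM in the other 10). Replicate 1 of 100 mg/kg/day was the highest litter for both genes. For Dcn replicate 1 of vehicle came next, above the litters of 900 mg/kg/day, while for Nr2f2 it was the lowest of the 4.

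Dcn therefore had a wide spread and no clear direction in the fit of all litters. Its SD between litters of a dose was 0.51 on the log2 scale, above that of 94.2% of tested genes of like count. The change was 0.08 ± 0.37 at 100, -0.21 ± 0.37 at 300, -0.38 ± 0.37 at 600 and 0.05 ± 0.41 at 900 mg/kg/day, and the 95% interval at 900 mg/kg/day ran from 0.560 to 1.92 times vehicle. Leaving out vehicle replicate 1 turned the estimate at 300 mg/kg/day from negative to 0.27.

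Lum was at 4.47, 1.59 and 1.49 CPM in vehicle, at 6.14, 2.92 and 1.84 CPM at 100, at 1.83, 3.93 and 4.95 CPM at 300, at 3.88, 1.87 and 2.03 CPM at 600 and at 3.01 and 3.69 CPM at 900 mg/kg/day. The highest litter was 4.13 times the lowest, and all groups overlapped vehicle. With 11 to 47 counts per library, counting error takes a large part of each value. The changes ranged from 0.06 ± 0.56 at 600 to 0.50 ± 0.54 at 100 mg/kg/day, and at 900 mg/kg/day the interval spanned 0.550 to 3.21 times vehicle. Without vehicle replicate 1 the estimate at 100 mg/kg/day was 1.21, and without replicate 1 of 100 mg/kg/day it was -0.10.

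Of the neighbours on the chromosome, Kera did not pass the filter on low counts and Epyc was read from a mean of 14.5 counts. Epyc was at 0.794 CPM in replicate 1 of vehicle and 0.392 CPM in replicate 1 of 100 mg/kg/day, the lowest values of the 14 litters, where Dcn and Lum were at their highest values for their doses. The list of other small leucine-rich proteoglycans had 6 tested genes, of which 0 passed in any comparison with edgeR. For the slope 2 of the 6 had an unadjusted p under 0.05, against 5.09% of all tested genes, and 1 (Bgn) passed with DESeq2. The median slope of the list was 0.0066 log2 per 100 mg/kg/day, against 6.4e-05 over all tested genes. Within that list, Bgn, which encodes the decorin relative biglycan, was at 93.2 ± 4.25 CPM in vehicle litters and 114.8 ± 0.55 CPM in those of 900 mg/kg/day (0.30 ± 0.11, edgeR adjusted p = 0.721), and Omd was at 7.43 ± 1.48 and 10.3 ± 0.46 CPM. Without replicate 1 of vehicle and of 100 mg/kg/day the slope of Bgn passed (0.031, edgeR adjusted p = 0.0466). In that fit 11.6% of all tested genes passed for the slope.

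Wnt5a (chromosome 16, 3697032 to 3718235) was at 4.37, 5.28 and 2.63 CPM in vehicle, at 3.66, 3.68 and 3.77 CPM at 100, at 3.98, 2.701 and 4.35 CPM at 300, at 4.63, 2.64 and 2.96 CPM at 600 and at 5.30 and 4.47 CPM at 900 mg/kg/day. All groups overlapped vehicle, which alone spanned almost the whole range. The change at 900 mg/kg/day was 0.25 ± 0.32 (edgeR adjusted p = 0.860), from 16 to 53 counts per library.

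Among 24 tested genes of Wnt5a receptors, relatives and inhibitors, 1 fell over dose, where 0.425% of all tested genes passed for the slope. This was Sfrp4, which encodes a secreted Frizzled-related protein that binds Wnt ligands. It was at 118, 32.3 and 146 CPM in vehicle, at 51.5, 72.5 and 71.6 CPM at 100, at 38.6, 29.8 and 43.7 CPM at 300, at 25.3, 48.5 and 30.0 CPM at 600 and at 23.5 and 19.7 CPM at 900 mg/kg/day. Both litters of 900 mg/kg/day were below every vehicle litter, although vehicle replicate 2 was within the range of 300 and 600 mg/kg/day. The slope was -0.23 ± 0.045 log2 per 100 mg/kg/day (edgeR adjusted p = 0.0339). In 9 of 14 fits with 1 litter left out the slope no longer passed, with an adjusted p of up to 0.144, and without replicate 1 of vehicle and of 100 mg/kg/day together it passed at 0.0324. At 900 mg/kg/day its change of -2.20 ± 0.50 did not pass with edgeR (adjusted p = 0.146) but was called by DESeq2 (adjusted p = 0.000587), which also called the slope (adjusted p = 0.000167). Over all alternatives the adjusted p at 900 mg/kg/day ran from 0.000587 to 0.964.

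The calls of Nr2f2, Dcn and Pdgfrb differed with the 2 libraries of low or no dose that lay with those of 900 mg/kg/day. With replicate 1 of vehicle and of 100 mg/kg/day left out, a choice made with these data in view, 3 of 9 genes passed between 900 mg/kg/day and vehicle, where 16.4% of all tested genes passed. Nr2f2 was then 0.60 ± 0.12 higher (edgeR adjusted p = 0.00499), Dcn 0.50 ± 0.14 higher (adjusted p = 0.0255) and Pdgfrb lower, at -0.87 ± 0.24 (adjusted p = 0.0214). The other 6 did not pass, with adjusted p from 0.136 for Lum to 0.677 for Wnt5a. Leaving out these libraries removes the litters of low or no dose that were most like those of 900 mg/kg/day. By its construction this widens the difference from vehicle and narrows the spread that all doses share. The standard error of Nr2f2 at 900 mg/kg/day was 0.26 with these libraries and 0.12 without them. Over all tested genes the share that passed was 0.252% with these libraries and 16.4% without them.

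The same 3 genes passed for the slope over dose without those libraries (3 of 9, against 11.6% of all genes), at 0.060 ± 0.016 for Nr2f2, 0.049 ± 0.015 for Dcn and -0.077 ± 0.022 for Pdgfrb per 100 mg/kg/day, with adjusted p of 0.029, 0.0487 and 0.0364. The slope of Dcn over all 14 litters had the other sign (-0.017 ± 0.036). Between 900 and 600 mg/kg/day, 2 of 9 passed (Nr2f2 and Dcn), against 13.8% of all genes. No litter of these doses was left out there. Nr2f2 was at 0.63 ± 0.11 and Dcn at 0.40 ± 0.13, beside 0.66 ± 0.26 and 0.43 ± 0.41 with all litters. The estimates thus did not grow, and the standard errors fell because the spread is estimated over all doses. That comparison also passed for these 2 genes when only the 5 litters of 600 and 900 mg/kg/day entered the fit (2 of 9, against 16.2% of all genes), with 0.62 for Nr2f2 and 0.39 for Dcn. With any 1 of the 14 litters left out, 0 of the 9 genes passed in each of the 6 comparisons.

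**Figure D3:**
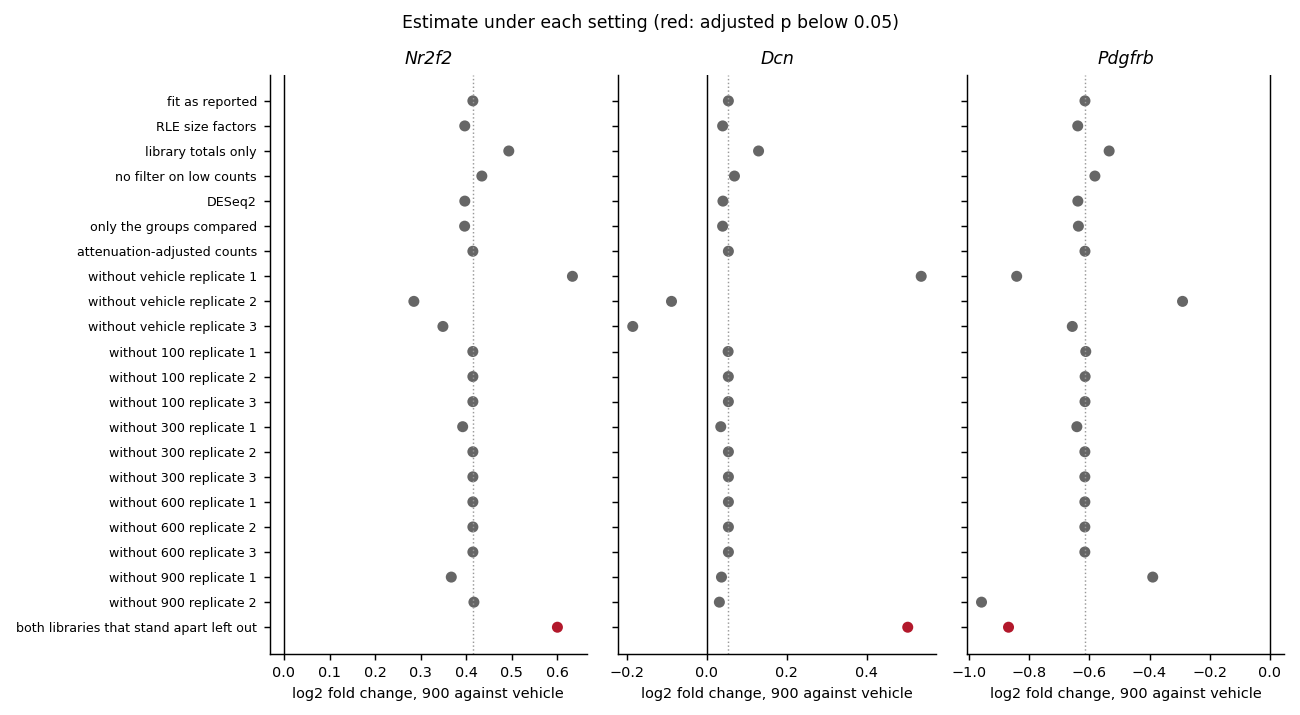
Log2 fold change between 900 mg/kg/day and vehicle (horizontal axis) of Nr2f2, Dcn and Pdgfrb in the fit as reported and under each alternative, 1 row per setting, with red for an adjusted p under 0.05. The only red points are in the lowest row, where replicate 1 of vehicle and of 100 mg/kg/day were both left out, and Dcn crosses 0 when vehicle replicate 2 or 3 is left out.

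Because 4 libraries lay apart, no r pooled over the 14 litters is given. Correlations between the genes were taken over the other 10, a split made after seeing the data. Of 36 pairs, 0 passed Benjamini-Hochberg adjustment and 5 had an unadjusted permutation p under 0.05 for Pearson's r. The closest pair was Nr2f2 and Tcf21, with r = 0.844 (permutation p = 0.00288, adjusted 0.104) and Spearman's rho = 0.855 (permutation p = 0.00304, adjusted 0.109) over 10 litters, and r = 0.731 without the 2 litters farthest from the median of Nr2f2. Nr2f2 and Dcn, both high in all 4 libraries left aside, had r = 0.484 (rho = 0.345; permutation p = 0.152 and 0.325) in the 10, and r = 0.0344 without the 2 farthest litters, and Nr2f2 and Pdgfrb had r = -0.282 (rho = -0.394; permutation p = 0.422 and 0.263). For Dcn and Lum r was 0.410 (rho = 0.600; permutation p = 0.237 and 0.0713) and 0.0265 without the 2 farthest litters. The 4 libraries that lay apart are too few for a value of their own.

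**Figure D4:**
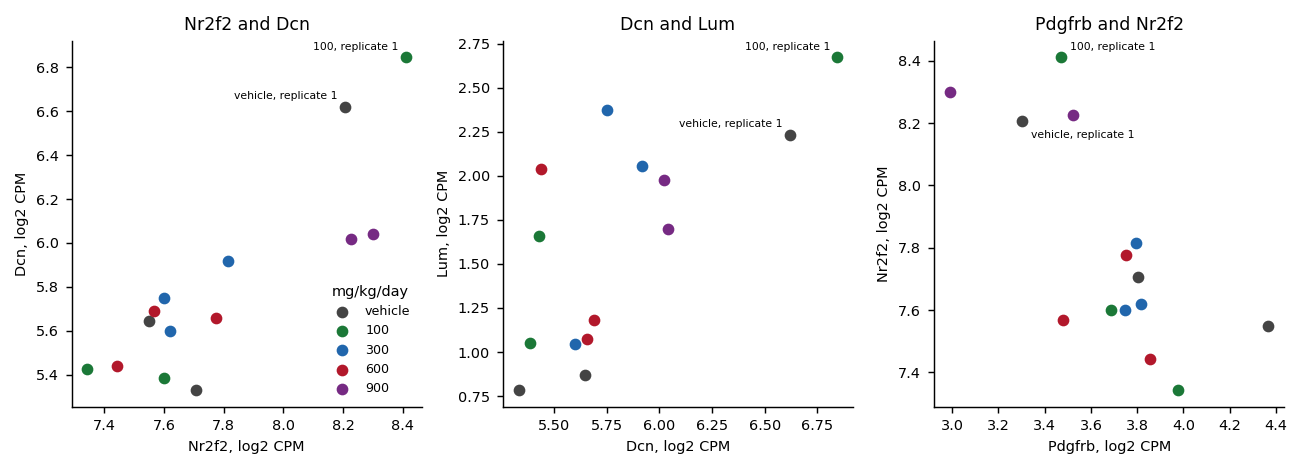
Log2 CPM of 2 genes in each of the 14 litters, coloured by dose, for Nr2f2 and Dcn, Dcn and Lum, and Pdgfrb and Nr2f2. In the panels with Nr2f2 the 4 libraries that lay apart form a separate cloud at a Nr2f2 level of 295.0 to 340.0 CPM, and the other 10 litters show r of 0.484 with Dcn and -0.282 with Pdgfrb.

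The named genes whose pattern over the 14 litters was most like each of the 9 were also found, among 9470 genes averaging 20 counts or more, and their r within the other 10 litters is given as a description. Those 10 litters took part in the choice, so a high r within them is partly set by it and is no separate check. Many genes shared the pattern of the 4 libraries that lay apart: over the 14 litters 654 genes had an r over 0.9 with Nr2f2 and 510 under -0.9, and the counts for Dcn were 181 and 214, so the genes named for these 2 are a few of many. For Nr2f2 they were Lipa, which encodes lysosomal acid lipase (0.948), and Insr, the insulin receptor gene (0.926), and the most opposite were Rad23b (-0.930) and Lsm3 (-0.891). For Dcn they were Nek4 (0.710) and Aff1 (0.844), with Ormdl2 (-0.911) and Chmp2a (-0.785) at the other end. For Tcf21 they were Tmem119 (0.932) and Dhx30 (0.819), and for Pdgfra Coro2b (0.840) and Igf2bp2 (0.844). For Pdgfrb they were Ccdc177 (0.777) and Vkorc1l1 (0.793), for Lum Itpripl1 (0.781) and Clpp (0.799), and for Wnt5a Sf3a2 (0.877) and Col18a1 (0.847). For the ligands they were Ccdc66 (0.752) and Mt1 (0.752) with Pdgfa, and Heph (0.736) and Rnf151 (0.706) with Pdgfb. None of these genes was another of the 9.

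The other genes of the PDGF pathway were described from a list of 27 further ligands, processing enzymes, adaptors and phosphatases, of which 26 were in the table and 25 were tested. With edgeR 0 of 25 passed in any of the 6 comparisons. In each, 1 or 2 had an unadjusted p under 0.05, where 3.4% to 8.32% of all tested genes did. DESeq2 called none of the 25. The median change of the list at 900 mg/kg/day was 0.05, beside 0.02 over all tested genes. The lowest trend p was that of Plat, tissue plasminogen activator, a protease that can activate PDGF-C, with 313 ± 32.4 CPM in vehicle litters and 402 ± 45.1 CPM in those of 900 mg/kg/day. Its slope of 0.047 ± 0.013 log2 per 100 mg/kg/day did not pass (adjusted p = 0.185). Without replicate 1 of vehicle and of 100 mg/kg/day the slope passed (0.040, edgeR adjusted p = 0.0424). The change at 900 mg/kg/day also passed in that fit (0.38, adjusted p = 0.0341). Of all tested genes 11.6% and 16.4% passed in these 2 comparisons. Of the remaining ligands, Pdgfc was at -0.78 ± 0.54 and Pdgfd at -0.24 ± 0.21 at 900 mg/kg/day (adjusted p = 0.852 each). The summed level of the list lay between 1656 and 1927 CPM in all 14 litters.

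The list of further interstitial and stromal genes had 43 names, of which 33 were tested, and 0 passed in any of the 6 comparisons with edgeR. DESeq2 called 1, Ptch1, at 900 mg/kg/day and over dose. The median change of the list was 0.08 at 900 mg/kg/day, beside 0.02 over all genes. At an unadjusted p under 0.05 the list had 3 genes higher and 1 lower of 33, against 4.99% of all tested genes. Its smallest trend p belonged to Ptch1 and Hhip, the hedgehog receptor gene and a gene for a hedgehog-binding protein, both induced by that pathway. Ptch1 was at 384, 373 and 364 CPM in vehicle and at 499 and 502 CPM at 900 mg/kg/day, above all other litters. Its change was 0.42 ± 0.10 (edgeR adjusted p = 0.182), and without both libraries it passed (0.41, adjusted p = 0.0111). Hhip measured 3.25 ± 1.90 CPM in vehicle litters and 6.90 ± 0.56 CPM in those of 900 mg/kg/day, with a change of 1.08 ± 0.37 (adjusted p = 0.686) and, without both libraries, 1.57 (adjusted p = 0.00612). Without both libraries 16.4% of all tested genes passed at 900 mg/kg/day. Among other hedgehog genes of the list, Gli1 was at -0.03 ± 0.25 and Gli2 at 0.11 ± 0.21 at 900 mg/kg/day. Gli3 was at 0.20 ± 0.16 and Smo at -0.43 ± 0.27. None of these passed (edgeR adjusted p of 0.852 to 0.982), and activity of the pathway was not tested.

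The summed level of the interstitial and stromal list followed the same 4 libraries. It was 7991 to 11360 CPM in vehicle, 6670 to 12280 CPM at 100, 7827 to 8815 CPM at 300, 7568 to 8488 CPM at 600 and 10540 to 11550 CPM at 900 mg/kg/day. Its upper values in vehicle and at 100 mg/kg/day were those of replicate 1. The collagen genes Col1a2 and Col3a1 made up 42.5% and 33.3% of the sum. Col3a1 was at 5323, 1755 and 2677 CPM in vehicle and at 5144 and 4180 CPM at 900 mg/kg/day, whereas Col1a2 kept between 3215 and 4086 CPM in all 14 litters, with its highest value in vehicle replicate 2, where Col3a1 was at its second lowest.

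Markers of the other cells of the testis were set beside these values. With edgeR, 0, 3, 5 and 6 of 11 tested fetal Leydig cell markers fell at 100, 300, 600 and 900 mg/kg/day. Over dose 8 of the 11 fell. Of all tested genes 0%, 0.0472%, 0.22%, 0.252% and 0.425% passed in those comparisons. At 100 mg/kg/day 5 markers were lower at an unadjusted p under 0.05, against 3.4% of all tested genes. DESeq2 called 1 (Star) at 100, then 4, 6 and 7, and 8 over dose. Its shares of all tested genes were 0.0157%, 0.212%, 0.464%, 0.716% and 0.936%. The summed level of these markers went from 6823 to 12000 CPM in vehicle to 1873 to 2255 CPM at 900 mg/kg/day. In the 2 litters of 900 mg/kg/day, where that sum was lowest, Nr2f2 was at 315 and 299 CPM and Pdgfra at 57.1 and 66.6 CPM. Nr2f2 was also high in replicate 1 of vehicle (295.0 CPM, Leydig sum 6823 CPM) and of 100 mg/kg/day (340.0 CPM, sum 4460 CPM). At 600 mg/kg/day, with sums of 2410 to 4631 CPM, Nr2f2 was at 174 to 219 CPM. A link between Nr2f2 and these markers was not tested. Of 10 peritubular and smooth muscle markers 0 passed with edgeR or DESeq2, and 3 were higher over dose at an unadjusted p under 0.05, where 5.09% of all tested genes had such a p in either direction. Their sums were 956 to 1176 CPM in vehicle, 1016 to 1197 CPM at 100, 1258 to 1380 CPM at 300, 1346 to 1564 CPM at 600 and 1079 to 1410 CPM at 900 mg/kg/day, so that the litters of 300 and 600 mg/kg/day lay above vehicle and those of 900 mg/kg/day overlapped it. Of 5 pericyte markers and 8 endothelial markers 0 passed with either tool. Over dose 1 of each had an unadjusted p under 0.05, against the same 5.09% of all tested genes. The pericyte sum was 47.8 to 57.6 CPM in vehicle, 47.1 to 71.3 CPM at 100, 49.97 to 57.7 CPM at 300 and 600 and 59.4 to 69.8 CPM at 900 mg/kg/day. Its highest values in vehicle and at 100 mg/kg/day were those of replicate 1, and the latter was the highest of all 14 litters. Pdgfrb, a gene of the same cells, was at 7.71 and 11.25 CPM at 900 mg/kg/day. The part of any of these cell types in the levels of the 9 genes was not tested.

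**Figure D5:**
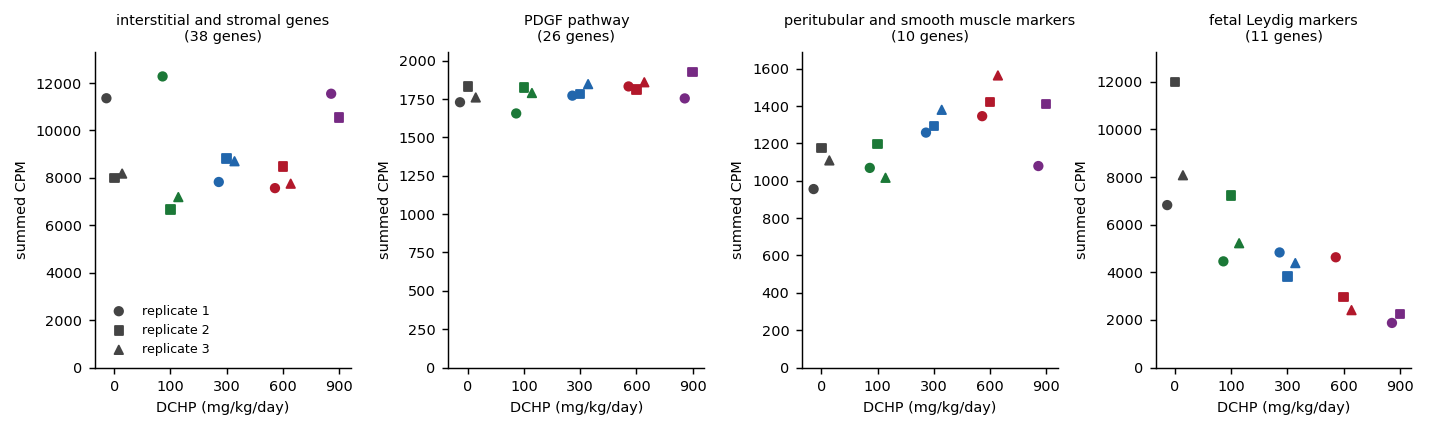
Summed CPM (vertical axis, from 0) of 4 gene lists in each of the 14 litters against dose of DCHP, with marker shape for the replicate number. The interstitial and stromal sum is highest in both litters of 900 mg/kg/day and in replicate 1 of vehicle and of 100 mg/kg/day, while the fetal Leydig sum is lowest at 900 mg/kg/day (1873 to 2255 CPM).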

How the data were processed

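Fetal rat testis RNA was read with TempO-Seq. The submitters' processing notes name STAR 2.7.8a, Partek, DESeq2 and the build rn7, without saying which made which table. The estimated counts per gene were made by the authors, as deposited, with a counting tool not given in the sources used here. Of these values 83.6% were whole to 1e-09, and all were rounded before testing. The deposited log2 values are log2 CPM that the authors made from attenuation-adjusted counts of 11624 genes, and they served only as an alternative for levels. The attenuation adjustment altered 16 genes and none of the 9.

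Genes were filtered with filterByExpr (12719 of 18174 kept), scaled by TMM and fitted with 1 robust quasi-likelihood model over 14 libraries (edgeR 4.0.16, R 4.3.3; 9 residual degrees of freedom, common biological coefficient of variation 0.232). Vehicle was the reference for every dose, 900 was also set against 600 mg/kg/day, and a second fit gave the slope over dose. Tests were two-sided with Benjamini-Hochberg adjustment over all tested genes and a threshold of 0.05. All comparisons with vehicle share the vehicle litters. Log2 CPM used a prior count of 2. Correlations used permutation tests with 100000 resamples (scipy 1.17.1) and adjustment over 36 pairs. The edgeR procedure was tested on simulated data. Alternatives were RLE size factors, library totals, no filter, DESeq2 1.42.0, only the groups compared, attenuation-adjusted counts and each library left out.

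The 9 genes and the 13 further lists were chosen with earlier results of these data known. All 9 genes are named. Further list genes were eligible to be named where they passed, or where they had one of the 4 (for lists close to the 9, 6) smallest trend p of their list. Not all of these are named, as with most fetal Leydig markers that passed. Other hedgehog genes, the remaining PDGF ligands and the neighbours of Dcn and Lum are named whatever their p. Col1a2 and Col3a1 were added because they lead a sum, and the genes of like pattern are those with the highest and lowest r. Library totals bound the precision of genes with few counts.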

Additional observations from a re-analysis of the deposited data

How the results depend on the processing

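No paired analysis was possible because no label numbers or pairs the litters. Of 54 estimates (9 genes in 6 comparisons), 24 kept their sign under all 21 alternatives and 30 turned under at least 1; none of the 54 passed as reported, and 10 of 1134 refitted values passed. The cause of the turns was not tested. The alternative without replicate 1 of vehicle and of 100 mg/kg/day was added with these data in view. It turned Nr2f2 to -0.15 and Dcn to -0.086 at 100 mg/kg/day, Nr2f2 to 0.051 and Dcn to 0.26 at 300, Pdgfra to -0.13 and Dcn to 0.10 at 600, Pdgfra to -0.17 at 900 and the slope of Dcn to 0.049. With no filter on low counts Pdgfb was at -0.028 (300), and Pdgfra at -0.019 (600) and 0.053 (900 against 600). With library totals alone Pdgfra was at -0.019 (600) and 0.11 (900 against 600), and at 900 mg/kg/day it was at -0.018 with RLE factors, -0.018 with DESeq2 and -0.017 with only those 2 groups. Without the 900 mg/kg/day litters the slopes were -0.021 for Pdgfb, -0.043 for Nr2f2, -0.011 for Lum and -0.034 for Wnt5a.

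With 1 litter left out, estimates that turned ranged as follows. At 100 mg/kg/day they were -0.14 to 0.15 for Pdgfa, -0.043 to 0.18 for Pdgfb, -0.39 to 0.16 for Pdgfrb, -0.37 to 0.23 for Nr2f2, -0.57 to 0.56 for Dcn, -0.10 to 1.21 for Lum and -0.38 to 0.076 for Wnt5a. At 300 they were -0.24 to 0.063 for Pdgfa, -0.14 to 0.19 for Pdgfb, -0.21 to 0.011 for Pdgfra, -0.33 to 0.22 for Pdgfrb, -0.30 to 0.052 for Nr2f2, -0.45 to 0.27 for Dcn and -0.39 to 0.061 for Wnt5a. At 600 they were -0.24 to 0.045 for Pdgfa, -0.30 to 0.066 for Pdgfb, -0.13 to 0.084 for Pdgfra, -0.41 to 0.14 for Pdgfrb, -0.049 to 0.13 for Tcf21, -0.62 to 0.10 for Dcn and -0.38 to 0.77 for Lum. At 900 they were -0.15 to 0.096 for Pdgfra and -0.18 to 0.54 for Dcn, and against 600 they were -0.55 to 0.051 for Pdgfa and -0.16 to 0.085 for Pdgfra. Slopes were -0.032 to 0.0097 for Dcn, -0.015 to 0.036 for Lum and -0.0032 to 0.036 for Wnt5a.

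Over all tested genes the counts that passed were 0, 6, 28 and 32 at 100, 300, 600 and 900 mg/kg/day, 0 for 900 against 600 and 54 for the slope. DESeq2 gave 2, 27, 59, 91, 8 and 119, RLE factors gave 15 at 600, and fits of only the groups compared gave 15 at 600, 5 at 900, 2064 for 900 against 600 and 17 for the slope. Without both libraries the counts were 40, 66, 2090, 1760 and 1471 from 300 mg/kg/day on. With 1 litter left out they ran from 0 to 10 at 300, 6 to 50 at 600, 0 to 51 at 900 and 31 to 76 for the slope. With 1 of 2 litters of 900 mg/kg/day left out, the remaining one has no spread of its own and takes that of the other doses. Counts of 11 to 53 per library limit Lum and Wnt5a. The authors' log2 CPM moved 5 of the group means by more than 1 SD, those of Pdgfb (3.203), Nr2f2 (8.32), Tcf21 (5.64) and Dcn (6.08) at 900 mg/kg/day and of Wnt5a (1.92) at 100. In log2 CPM as used here, the litters of these groups were at 3.175 and 3.155 for Pdgfb and at 8.3 and 8.226 for Nr2f2. They were at 5.601 and 5.561 for Tcf21, at 6.039 and 6.02 for Dcn and at 1.962, 1.971 and 2.004 for Wnt5a. These litters lay close together, so their SD is a narrow limit.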
